A study of Mus musculus with 6 samples.

Results

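The RAS family small GTPases considered here are 9 genes, namely Hras, Nras, Mras, Rras, Rras2, Rap1a, Rap1b, Rap2a and Rap2b. They were taken by gene symbol from a table of raw read counts for 53465 mouse genes, and all 9 were among the 11510 genes with enough counts to be tested. The counts come from RNA sequencing of 6 cell lines, each grown from a liver tumour of a different C57BL/6 mouse. In all 6, adult wild-type hepatocytes had received a Myc transposon under the EF1a promoter together with a plasmid carrying Cas9 and a single guide RNA, by tail vein injection. The 3 Myc_Utx lines (2A, 2B and 2D) come from Kdm6a-deficient tumours, Utx being another name of Kdm6a, and the 3 Myc_p53 lines (1, 2 and 3) come from p53 knockout tumours. The control lines therefore carry a tumour suppressor knockout of their own, and a difference between the groups cannot be assigned to either gene alone. Each line stands for 1 tumour, and the Myc_Utx lines were more alike (Pearson's r of log2 levels across genes, which are not independent replicates, from 0.953 to 0.959) than the Myc_p53 lines (0.872 to 0.939). The cultures had been passaged until other cell types were no longer visible.

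Small GTPases of this family are molecular switches at the inner face of membranes. Exchange factors load them with GTP, which lets them bind effectors, and GTPase-activating proteins return them to the GDP-bound state. The classical members H-RAS and N-RAS pass growth factor signals to the RAF, MEK and ERK kinases and are among the best known oncogene products, R-RAS proteins and the RAP proteins are better known for integrin adhesion and cell junctions, and M-RAS joins SHOC2 and a phosphatase in activating RAF. Their activity is set mainly at the protein level, so the mRNA levels described here do not measure signalling.

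Between 4656103 and 5473042 reads were counted per Myc_Utx line and between 5370608 and 6937497 per Myc_p53 line. The members had from 70 to 1600 counts in a line. As a check of the labels, Trp53 had 294.2, 295.5 and 275.9 CPM (counts scaled to library size, with TMM factors) in Myc_Utx lines 2A, 2B and 2D and 32.4, 34.5 and 35.8 in Myc_p53 lines 1, 2 and 3. Kdm6a, whose guide need not lower its mRNA, had 39.7, 45.7 and 49.0 CPM against 69.5, 64.5 and 42.5, with overlap between the groups. Hepatocyte lineage markers other than the keratins Krt8 and Krt18 were sparse, and Alb had from 4 to 26 counts in any line. The summed CPM of 8 hepatocyte lineage markers ran from 2.67 to 93.4 in Myc_Utx lines and was 1208, 39.7 and 774.8 in Myc_p53 lines 1, 2 and 3. Krt8 and Krt18 made up most of this sum except in 2D, where both had 0 counts. Of 9 macrophage markers, 7 were lower in every Myc_Utx line than in every Myc_p53 line, against 20.9% of all genes tested. By edgeR, 6 of the 9 had an adjusted p under 0.05, against 14.7% of all genes tested, and no gene of the other marker lists did. Adgre1 was at 0 in Myc_Utx lines, and Ptprc had no more than 3 counts in any line. Cd14 was higher in every Myc_Utx line after scaling to library size, with raw counts of 267, 183 and 145 against 122, 102 and 152. It made up most of the summed level of the list in Myc_Utx lines, which was 37.6 to 56.0 CPM against 58.8 to 129.8. The summed level of 7 fibroblast and stellate cell markers was 1946 to 2678 CPM in Myc_Utx lines and 35.6, 3145 and 496.5 in Myc_p53 lines 1, 2 and 3. Most of it in Myc_Utx lines was Col3a1, with 8677, 12288 and 11488 counts against 65, 14680 and 518. No marker of this list was higher in every Myc_Utx line than in every Myc_p53 line. Dcn was lower in every one, with 1, 3 and 0 counts against 86, 9 and 109, and Lrat had 0 in all lines. Of 6 endothelial markers, 4 were at or under 3 counts in every line, and the summed level of the list was at most 1.42 CPM. That of 4 cholangiocyte markers was 61.7 to 90.0 CPM against 82.1 to 443.1. The part of these markers in the values below was not tested, and in bulk RNA fewer cells of a type and less RNA per cell cannot be told apart.

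Hras was the 1 member that passed the test, at a higher level in Myc_Utx lines. Nras, Mras, Rras and Rras2 were lower in every Myc_Utx line than in every Myc_p53 line and Rap2a and Rap2b were higher in every line, none of them past the threshold, and Rap1a and Rap1b overlapped between the groups. Counts of both groups entered the quasi-likelihood F test of edgeR, p-values were adjusted by Benjamini-Hochberg across the table, and genes under 0.05 were called. Over all genes tested, 14.7% were called, 6.99% as higher and 7.69% as lower in Myc_Utx lines, so that 1 call among 9 members (11.1%) is no more than the share over the table. No member was called lower by edgeR, whereas 4 were lower and 3 higher at an unadjusted p under 0.05, a level that 35.0% of all genes tested reached, and DESeq2 called 3 members, Hras and Rap2a as higher and Rras2 as lower, against 20.1% of the genes it adjusted. The groups did not overlap for 7 of the 9 members, 3 higher and 4 lower, against 42.0% of all genes tested (21.1% higher and 20.9% lower). The median log2 fold change of the members was 0.04, beside -0.01 for all genes, and the median of its size was 0.73, beside 0.41. Positive log2 fold changes stand for higher expression in Myc_Utx lines throughout.

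**Figure D1:**
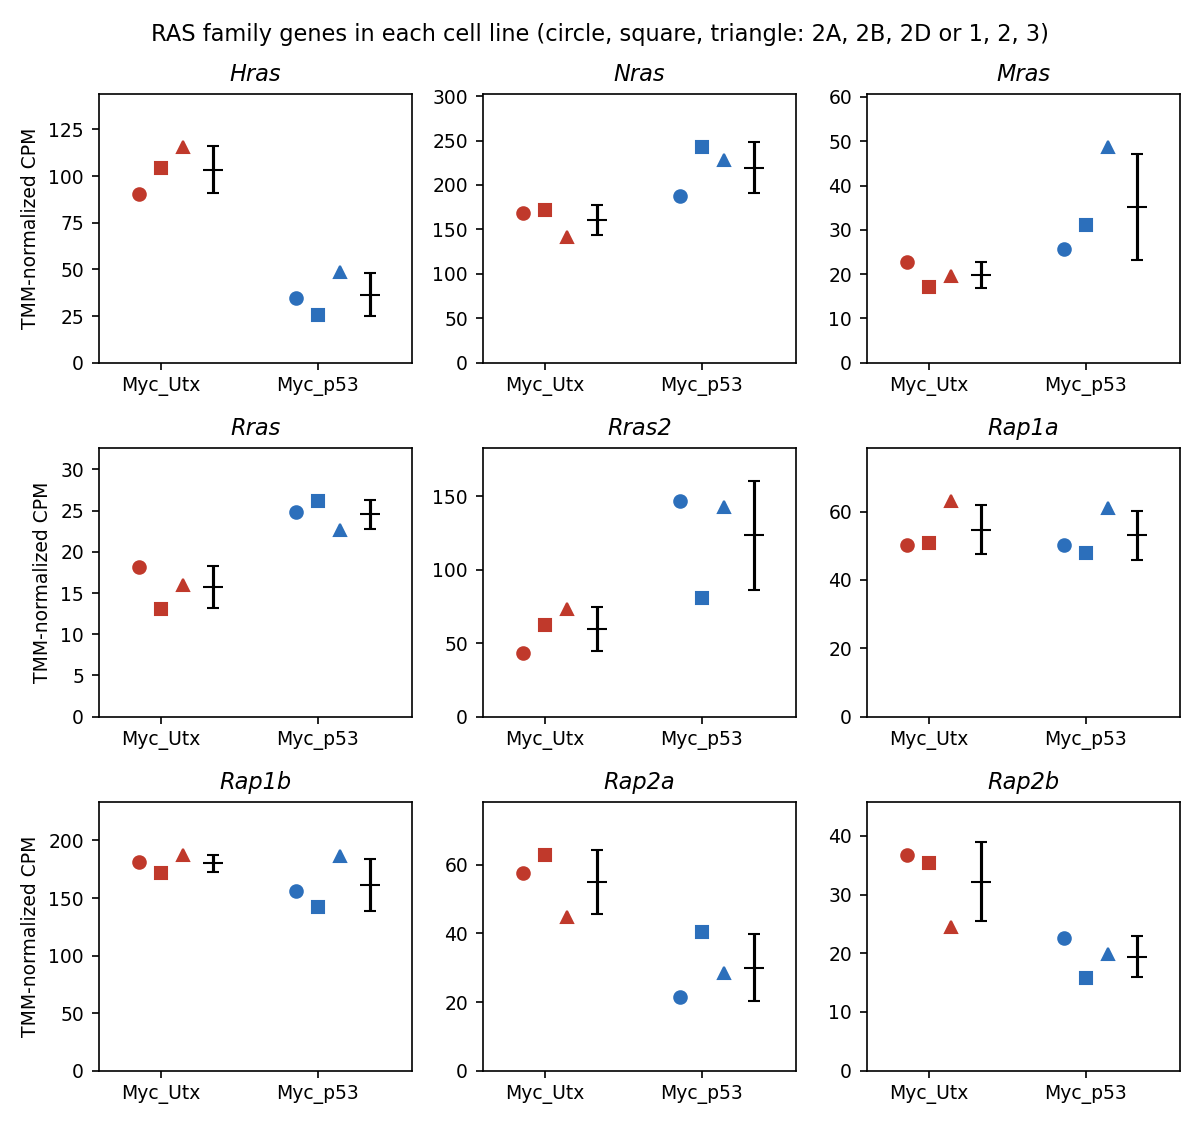
TMM-normalized CPM of each RAS family gene (vertical axis, from 0, with its own scale for each gene) in the 3 Myc_Utx and 3 Myc_p53 cell lines. Symbols are single lines, and the bar beside them is the mean with its SD (n = 3). The groups are separate for every gene except Rap1a and Rap1b.

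Of the classical members, Hras rose and Nras had lower values that did not pass the test. Hras (ENSMUSG00000025499, chromosome 7 of GRCm38, 141189105 to 141194005, minus strand) had 90.3, 104.5 and 115.4 CPM in Myc_Utx lines 2A, 2B and 2D and 34.9, 25.6 and 48.6 CPM in Myc_p53 lines 1, 2 and 3. The lowest Myc_Utx line thus lay well above the highest Myc_p53 line. The means were 103.4 ± 12.5 (SD, n = 3) and 36.4 ± 11.6 (SD, n = 3), a ratio of 2.84, and the log2 fold change was 1.50 (standard error, SE, 0.25, adjusted p = 0.0195 by edgeR). With a line left out in turn it was between 1.31 and 1.76, and the adjusted p by edgeR was above 0.05 without any 1 of the Myc_Utx lines (0.0656 without 2A, 0.0701 without 2B and 0.0781 without 2D). Those fits called only 0.0332%, 0.672% and 0.585% of the genes tested. Without Myc_p53 line 1, 2 or 3 the adjusted p by edgeR was 0.0475, 0.0203 and 0.0440, in fits that called 9.41%, 16.4% and 1.02%.

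Nras (ENSMUSG00000027852, chromosome 3, 103058285 to 103067914, plus strand) had 168.7, 171.3 and 141.2 CPM in Myc_Utx lines and 187.3, 242.4 and 228.1 in Myc_p53 lines. All Myc_Utx lines were below all Myc_p53 lines, by a narrow margin between 2B and line 1. The log2 fold change of -0.45 (SE 0.14, adjusted p = 0.0770) fell short of the threshold. Within each library the ratio of Hras to Nras, per base of annotated exon, does not depend on library scaling. On the log2 scale it was -0.39, -0.20 and 0.22 in Myc_Utx lines 2A, 2B and 2D and -1.91, -2.73 and -1.72 in Myc_p53 lines 1, 2 and 3. Lengths were all annotated exon bases, 3733 for Hras and 5331 for Nras. By them, Hras mRNA was near the level of Nras mRNA in Myc_Utx lines and well below it in each Myc_p53 line. How far apart the genes lie within a line depends on these lengths, and the transcripts present may be shorter. The difference of 2.00 between the group means does not depend on them (two-sided exact permutation, p = 0.1, which is the minimum for groups of 3, and 0.4 after adjustment over 4 pairs).

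The sequences just upstream of the start sites are shown for these 2 genes and for Rras2, which had the lowest log2 fold change of the family, because the genes differ in what lies there. They are RefSeq promoter sequences of GRCm38.p6, cut to the stretch that no GENCODE M21 exon covers, and capitals mark matches on either strand to the GC box (GGGCGG), the CCAAT box (CCAAT) and the E-box (CACGTG), the motif that Myc binds with Max.
Hras, chr7:141194006-141194156, minus strand: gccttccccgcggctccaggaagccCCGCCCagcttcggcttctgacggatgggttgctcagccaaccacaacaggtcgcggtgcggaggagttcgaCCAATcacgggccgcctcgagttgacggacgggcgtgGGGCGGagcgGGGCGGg
Nras, chr3:103058187-103058284, plus strand: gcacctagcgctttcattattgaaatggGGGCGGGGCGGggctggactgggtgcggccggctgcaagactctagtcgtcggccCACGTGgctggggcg
Rras2, chr7:114117782-114118031, minus strand: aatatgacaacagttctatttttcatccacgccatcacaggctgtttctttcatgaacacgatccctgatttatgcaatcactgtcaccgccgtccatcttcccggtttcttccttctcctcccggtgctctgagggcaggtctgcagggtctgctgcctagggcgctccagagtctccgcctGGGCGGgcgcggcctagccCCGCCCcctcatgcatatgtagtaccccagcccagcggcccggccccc

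The 151 bases shown for Hras are the whole space between its first exon and that of Lrrc56, a gene of the opposite strand. Lrrc56 had 13, 3 and 12 counts in Myc_Utx lines and 16, 11 and 17 in Myc_p53 lines, with overlap between the groups and a log2 fold change of -0.27 (adjusted p = 0.756). An E-box lay 15 bases before the start of Nras, and none was found in the 250 bases upstream of the other members, where 6.02% of 32851 mouse promoters hold one. A GC box was present upstream of 7 of the 8 members with an entry, Rras being the exception, against 32.7% of promoters. Those 7 had 14 to 39 CpG and 48.4% to 78.0% GC in the 250 bases, against medians of 6 and 52.4% over mouse promoters. The part of base content in the share with a GC box was not tested. Rap1a has no entry.

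The R-RAS and M-RAS genes had lower values in each Myc_Utx line than in any Myc_p53 line. Rras2 (ENSMUSG00000055723, chromosome 7, 114046782 to 114117781, minus strand), also called TC21, had 43.3, 62.2 and 73.5 CPM in Myc_Utx lines 2A, 2B and 2D and 146.5, 80.4 and 142.9 in Myc_p53 lines 1, 2 and 3. Line 2 of Myc_p53 lay close to the Myc_Utx lines and far from its own group. The difference was -1.05 on the log2 scale (SE 0.29, adjusted p = 0.0591). Without Myc_p53 line 2, the line that also had far fewer keratin counts than lines 1 and 3, it was -1.28 with an adjusted p of 0.0252 by edgeR, in a fit that called 16.4% of the genes tested. With any other line left out the adjusted p by edgeR was between 0.1165 and 0.1522, in fits that called from 0.0332% to 9.41% of the genes.

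Rras (ENSMUSG00000038387, chromosome 7, 45017961 to 45021647, plus strand), which acts on integrins, had 18.2, 13.1 and 16.0 CPM in Myc_Utx lines and 24.8, 26.1 and 22.7 in Myc_p53 lines. Both groups were tight and did not overlap, and the log2 fold change was -0.64 (SE 0.19, adjusted p = 0.0708). Its exon sequence is the shortest of the family. With the dependence on length and GC content removed in each line, the log2 fold change was -0.93 (adjusted p = 0.0339 by edgeR). That fit called 10.8% of the genes tested. Mras (ENSMUSG00000032470, chromosome 9, 99385420 to 99437381, minus strand) had 22.7, 17.0 and 19.6 CPM against 25.6, 31.1 and 48.6. The Myc_p53 lines differed among themselves more than the Myc_Utx lines, line 3 being the highest, and the log2 fold change was -0.83 (SE 0.28, adjusted p = 0.0900).

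**Figure D2:**
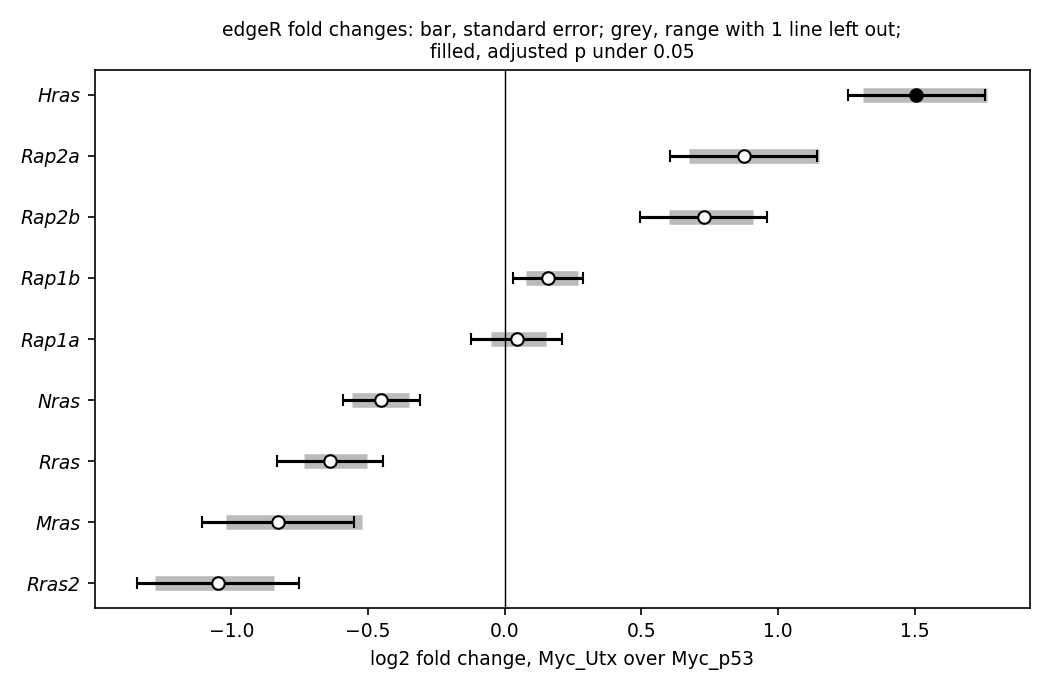
Log2 fold change of each RAS family gene, Myc_Utx over Myc_p53 (horizontal axis), from edgeR with all 6 lines. Circles are estimates with their standard error, grey bars the range of estimates with each line left out in turn, and the filled circle marks the adjusted p under 0.05. Only Hras, at 1.50, is filled, and the grey bar of Rap1a alone crosses 0.

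The RAP1 genes showed the smallest differences. Rap1b (ENSMUSG00000052681, chromosome 10, 117813871 to 117846035, minus strand), the RAP form known from platelet integrin activation, had 181.5, 172.1 and 187.1 CPM in Myc_Utx lines and 155.7, 142.4 and 186.2 in Myc_p53 lines. Line 3 of Myc_p53 fell within the range of the Myc_Utx lines, and the log2 fold change of 0.16 had a 95% interval from -0.15 to 0.47 (adjusted p = 0.419). Rap1a (ENSMUSG00000068798, chromosome 3, 105727267 to 105801336, minus strand) had 50.3, 50.9 and 63.0 CPM against 50.2, 47.8 and 61.2. The groups overlapped in most of their range, with a log2 fold change of 0.04 and an interval from -0.35 to 0.44 (adjusted p = 0.871). The log2 ratio of Rap1a to Rap1b per base differed by -0.12 between the groups (exact permutation test, two-sided p = 0.4). Of all runs of 50 bases in Rap1a transcripts, 8.27% also occur in other genes, chiefly the pseudogene Gm9392, which had from 3 to 6 counts in any line.

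The RAP2 genes, whose products bind kinases of the MAP4K4 family, were both higher in each Myc_Utx line. Rap2a (ENSMUSG00000051615, chromosome 14, 120478444 to 120507194, plus strand) had 57.4, 62.7 and 44.8 CPM in Myc_Utx lines 2A, 2B and 2D and 21.3, 40.4 and 28.4 in Myc_p53 lines 1, 2 and 3. Line 2D and Myc_p53 line 2 lay close together, and the log2 fold change was 0.87 (SE 0.27, adjusted p = 0.0719). Without Myc_p53 line 2 it was 1.15 with an adjusted p of 0.0306 by edgeR, in the fit that called 16.4% of the genes tested. With any other line left out the adjusted p by edgeR was between 0.1218 and 0.181. The log2 fold change was lowest, at 0.67, without Myc_p53 line 1. Rap2b (ENSMUSG00000036894, chromosome 3, 61361638 to 61368430, plus strand) had 36.7, 35.4 and 24.5 CPM against 22.6, 15.8 and 20.0, with 2D the lowest of the Myc_Utx lines for both genes. The fitted difference was 0.73 on the log2 scale (SE 0.23, adjusted p = 0.0807). On the opposite strand B430305J03Rik covers 3702 of its 6793 exon bases and had 0 counts in all 6 lines. Whether reads from that stretch were counted is not given in the sources used here, which limits the level of Rap2b. The gene Rap2c, which completes the group on chromosome X and was not among the 9, had 64.6, 65.2 and 61.5 CPM against 52.9, 27.6 and 48.9, again higher in every Myc_Utx line, with a log2 fold change of 0.56 (adjusted p = 0.168).

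Levels of different genes were compared as CPM per kb of exon sequence. All annotated exon bases were counted, and the order of genes and their shares depend on this length. In Myc_Utx lines the order was Rap1b (62.5 ± 2.63, SD, n = 3), Nras (30.1 ± 3.13), Hras (27.7 ± 3.36), Rap1a (21.0 ± 2.76), Rras2 (16.8 ± 4.29), Rras (14.1 ± 2.26), Rap2a (13.1 ± 2.20), Rap2b (4.74 ± 0.986) and Mras (3.86 ± 0.556). Neighbours in this order whose ranges did not overlap were Rap1b and Nras, Hras and Rap1a, and Rap2a and Rap2b. In Myc_p53 lines the order was Rap1b (56.0 ± 7.80, SD, n = 3), Nras (41.1 ± 5.37), Rras2 (34.7 ± 10.4), Rras (21.9 ± 1.56), Rap1a (20.4 ± 2.73), Hras (9.74 ± 3.10), Rap2a (7.17 ± 2.30), Mras (6.84 ± 2.34) and Rap2b (2.86 ± 0.508). Here only Rap1b and Nras, Rap1a and Hras, and Mras and Rap2b were separate.

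The summed level of the 9 genes overlapped between the groups, at 190.0, 192.0 and 199.5 CPM per kb in Myc_Utx lines and 194.5, 184.0 and 223.4 in Myc_p53 lines. Hras made up 12.7%, 14.6% and 15.5% of it in Myc_Utx lines and 4.81%, 3.72% and 5.83% in Myc_p53 lines. For Rras2 the shares were 6.41%, 9.11% and 10.4% against 21.2%, 12.3% and 18.0%. Rap1b was the largest share in every line, from 31.1% to 33.1% against 26.8% to 28.9%. The log2 ratio of Rras to Rras2 overlapped between the groups (difference 0.38, exact permutation test, two-sided p = 0.5), as did that of Rap2a to Rap2b (difference 0.19, exact permutation test, two-sided p = 0.7).

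**Figure D3:**
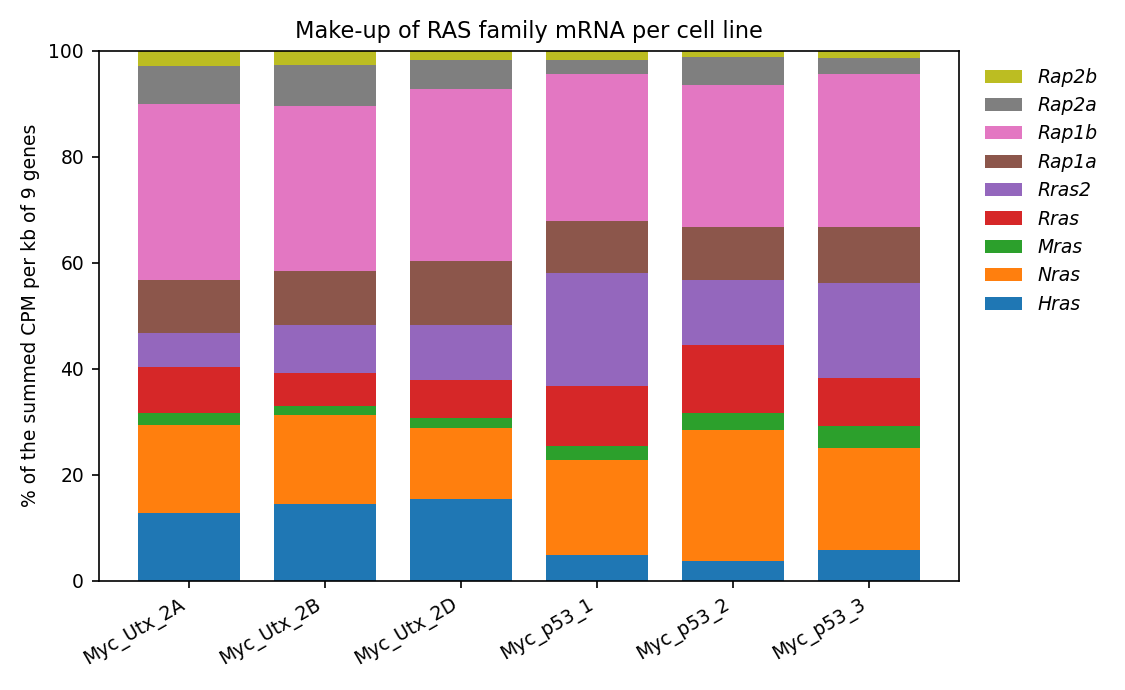
Share of each RAS family gene in the summed CPM per kb of all 9 genes (stacked bars from 0 to 100%) in each cell line. The Hras segment runs from 12.7% to 15.5% in Myc_Utx lines and from 3.72% to 5.83% in Myc_p53 lines, and the Rras2 segment is widest in Myc_p53 lines 1 and 3.

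Chromosomes as a whole differed between the groups, and the members lie on 5 of them. Of the 829 genes tested on chromosome 7, which holds Hras, Rras and Rras2, 75.4% had a log2 fold change above 0, against 49.2% of all genes tested, and 24.7% rose. The median log2 fold change of 0.43 was the highest of the 20 chromosomes with at least 100 genes tested. On chromosome 3, which holds Nras, Rap1a and Rap2b, the median was the lowest, at -0.27, with 31.9% above 0. Chromosome 7 genes had a median deviation from the mean of the 6 lines of 0.23, 0.20 and 0.23 on the log2 scale in Myc_Utx lines 2A, 2B and 2D and -0.13, -0.31 and -0.19 in Myc_p53 lines 1, 2 and 3. That was the highest median of the 20 chromosomes in each Myc_Utx line, while in Myc_p53 lines 1 and 2 other chromosomes lay lower, chromosome 1 at -0.23 in line 1 and chromosome X at -0.41 in line 2. The part of these chromosome-wide values in those of single genes was examined by removing the median deviation of each chromosome in each line, an alternative chosen after the values had been seen.

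With chromosome medians removed, the log2 fold change of Hras was 1.08 (adjusted p = 0.0340 by edgeR), at the 96.3 percentile of its chromosome before removal. Rras and Rras2 lay at the other end of the same chromosome's values, at the 9.89 and 6.63 percentiles, and their log2 fold changes became -1.07 (adjusted p = 0.0248 by edgeR) and -1.46 (adjusted p = 0.0257 by edgeR). Rap2a reached 1.07 (adjusted p = 0.0274 by edgeR) and Rap2b 0.96 (adjusted p = 0.0600 by edgeR). For Nras, the value of -0.45 became -0.19 (adjusted p = 0.263 by edgeR), and Mras stayed at -0.81 (adjusted p = 0.0961 by edgeR). In this fit 4 of 9 members were called, against 14.6% of all genes tested. DNA copy number was not measured in these samples.

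Around Hras, within 500 kb on either side, 26 of 31 other genes tested were higher in Myc_Utx lines and 10 rose, with a median log2 fold change of 0.50. The windows and the genes named from them were chosen after the values had been seen. The highest values among those that rose were those of Pidd1 at 2.16 (adjusted p = 0.0185), which encodes a p53-induced death domain protein, Polr2l at 1.61 (adjusted p = 0.0239), an RNA polymerase subunit, and Taldo1 at 1.43 (adjusted p = 0.00511), a pentose phosphate pathway enzyme. Around Rras, which was itself lower, 33 of 40 genes tested were higher and 14 rose, with a median of 0.45. Both windows lie on chromosome 7, where 75.4% of all genes tested were higher and 24.7% rose, with a median of 0.43. Over the whole table these shares were 49.2% and 6.99%. The windows of the other members held 5 or 6 genes tested for Nras, Mras, Rras2, Rap1a and Rap1b, 2 for Rap2a and 0 for Rap2b.

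**Figure D4:**
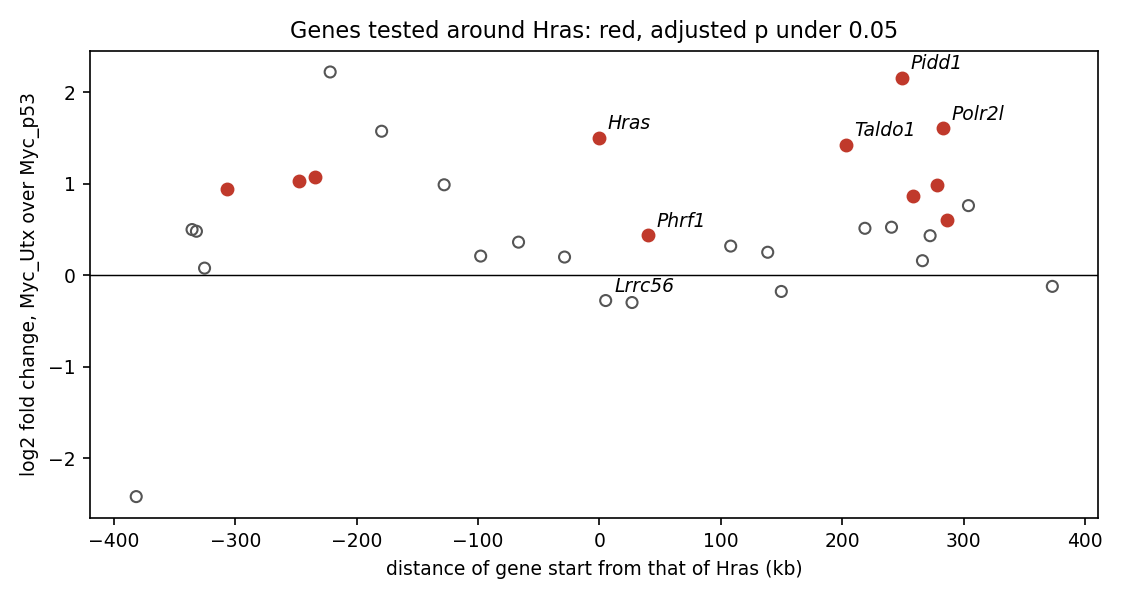
Log2 fold change, Myc_Utx over Myc_p53 (vertical axis), of Hras and the 31 other genes tested within 500 kb, against the distance of their start from that of Hras in kb (horizontal axis). Red points have an adjusted p under 0.05. Hras at 1.50, Pidd1 at 2.16, Polr2l at 1.61 and Taldo1 at 1.43 stand among mostly positive values, and Lrrc56 beside Hras is at -0.27.

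The genes whose levels over the 6 lines followed Hras most closely, by Pearson's r of log2 CPM among 9510 genes with a mean of at least 50 counts, were Phrf1 (r = 0.995), Tmem126a (0.995) and Gna11 (0.994). Phrf1, a PHD and RING finger protein gene, starts 39.7 kb from Hras and had 151.8, 162.9 and 167.5 CPM in Myc_Utx lines and 120.1, 108.4 and 126.2 in Myc_p53 lines. Closest to Rras2 were Syde2 (r = 0.996), Tmem170b (0.994) and Zfp568 (0.992). The points share their libraries and the contrast between the groups, so these values describe a likeness only.

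The genes that act on or below RAS and RAP proteins were examined in 7 lists. Of 91 genes tested, 5 rose and 5 fell in Myc_Utx lines, which is 11.0%, against 14.7% of all genes. With a line left out in turn, 0 to 4 of them were called higher and 0 to 7 lower, none of them without 2A, 2B, 2D or Myc_p53 line 3, when 4, 81, 71 and 120 genes were called in the whole table by edgeR. Of the 12 other RAS family GTPases tested, 6 were higher and 6 lower. None of them passed by edgeR and 0 had an unadjusted p under 0.05, while DESeq2 called 1, Rerg, which had 48, 7 and 96 counts in Myc_Utx lines and 4, 9 and 5 in Myc_p53 lines, overlapped between the groups, and was left out of the edgeR test for low counts. Rasd2 was spread widely within the control group, with 66.7, 0.371 and 9.84 CPM in Myc_p53 lines 1, 2 and 3 against 0.399, 5.06 and 1.34 (log2 fold change -3.47, adjusted p = 0.179). Of 8 exchange factors, all 8 had log2 fold changes below 0, from -1.32 to -0.03 (7 of the 8 with length and GC dependence removed), and 1 fell. That gene, Rapgef2, an activator of RAP proteins, had 22.3, 25.5 and 24.7 CPM in Myc_Utx lines and 47.1, 61.0 and 56.9 in Myc_p53 lines, a log2 fold change of -1.18 (adjusted p = 0.0164). Sos1 and Sos2, activators of RAS downstream of growth factor receptors that were chosen after their values were seen, had log2 fold changes of -0.22 (adjusted p = 0.251) and -0.03 (adjusted p = 0.912).

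Of 14 GTPase-activating proteins tested, 1 rose and 1 fell, while 5 were higher and 9 lower, with a list median of -0.26. With length and GC dependence removed, 7 were higher and 7 lower, with a median of 0.01. At an unadjusted p under 0.05 by edgeR, 1 was higher and 6 were lower, a level that 35.0% of all genes tested reached. Sipa1l2, of the family that inactivates RAP, had 62.0, 35.6 and 40.1 CPM against 17.7, 18.9 and 24.1 (log2 fold change 1.18, adjusted p = 0.0353). Of 14 genes of lipidation and membrane targeting, 11 were higher (10 with scaling by total counts only or with at least 10 counts required in every line) and 2 rose, with a list median of 0.22. Both encode enzymes that remove palmitate from proteins. Lypla1 had 79.2, 84.1 and 89.7 CPM against 48.4, 51.7 and 56.9 (log2 fold change 0.69, adjusted p = 0.0233), and Abhd17a had 71.6, 66.7 and 71.3 against 49.5, 51.3 and 50.9 (log2 fold change 0.47, adjusted p = 0.0436).

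Among 20 RAS effectors and ERK cascade genes, 2 rose and 2 fell, with a median of -0.11. Map2k2, which encodes the kinase MEK2, had 146.0, 165.1 and 166.8 CPM in Myc_Utx lines and 78.1, 112.7 and 94.8 in Myc_p53 lines (log2 fold change 0.74, adjusted p = 0.0323). Rgl2, an exchange factor for RAL that RAS binds, rose by less, with 0.55 on that scale (adjusted p = 0.0436). The genes that fell were Tiam1 (-0.91, adjusted p = 0.0272), an exchange factor for RAC, and Rassf1 (-0.92, adjusted p = 0.0414), a tumour suppressor with a RAS-association domain. Of 7 RAP effectors tested, 6 were lower (5 with length and GC dependence removed) and 1 fell. DESeq2 called 4 of the 10 genes of this list as lower and 0 as higher. Of the 111 genes in the 7 lists it called 9 as higher and 14 as lower. Over all genes it adjusted, it called 20.1% in either direction. The 10 and the 111 include genes that edgeR left out for low counts, so these shares are not fully alike. Afdn, which encodes the junction protein afadin, had 142.6, 140.2 and 140.5 CPM against 297.6, 186.1 and 304.6 (log2 fold change -0.90, adjusted p = 0.0353), with Myc_p53 line 2 again nearest to the other group.

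The last list holds transcripts that ERK signalling is known to induce. None of the 16 tested passed by edgeR, 1 had an unadjusted p under 0.05 and DESeq2 called 1, and 6 were higher and 10 lower with a median of -0.17. That gene was the same for both, Ier3, an immediate early gene, which had 24.3, 38.0 and 18.0 CPM in Myc_Utx lines and 84.5, 27.3 and 81.1 in Myc_p53 lines, so that Myc_p53 line 2 lay within the Myc_Utx range (log2 fold change -1.26, adjusted p = 0.120). Fosl1, an AP-1 subunit, had 47.9, 60.7 and 38.1 against 15.6, 23.2 and 41.2 (log2 fold change 0.87, adjusted p = 0.156). Dusp6 and Spry2, feedback inhibitors of the pathway also chosen after their values were seen, had log2 fold changes of 0.51 (adjusted p = 0.604) and -0.10 (adjusted p = 0.908). The other Dusp and Spry genes tested were lower, Dusp4 at -2.02 (adjusted p = 0.211), Dusp5 at -0.41 (adjusted p = 0.792) and Spry1 at -1.63 (adjusted p = 0.196), all by edgeR.

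**Figure D5:**
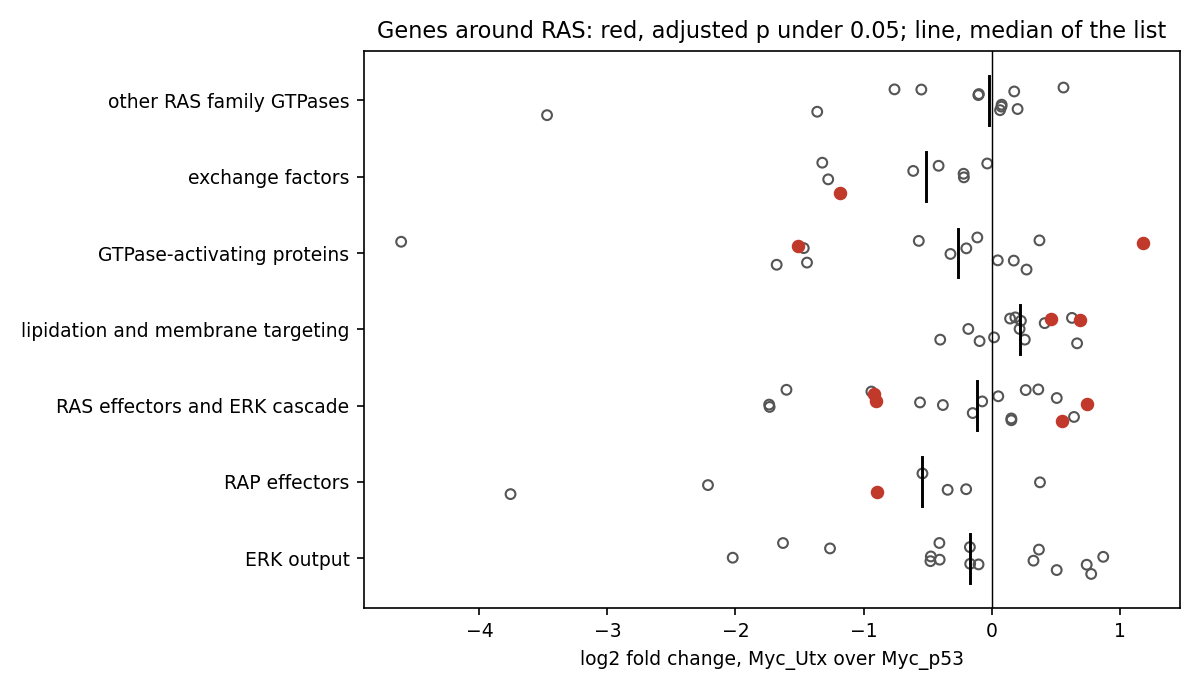
Log2 fold change, Myc_Utx over Myc_p53 (horizontal axis), of the 91 genes tested in 7 lists around RAS and RAP proteins (rows). Each circle is a gene, red circles have an adjusted p under 0.05, and the black line is the median of the list. Red circles lie on both sides of 0, and the ERK output list has none.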

How the data were processed

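RNA of 6 cell lines was sequenced, and the authors deposited raw counts per gene. Per the labels and the submitters' processing notes, reads were trimmed with Trimmomatic 0.36, aligned to GRCm38 with STAR 2.5.3a and counted with featureCounts 1.6.3. The paper's methods name another counter, build and guide for RNA sequencing, and the labels were followed here. Whether counting used strand is not given in the sources used here. Gene coordinates in the table equal those of GENCODE M21 for 96.4% of matched genes.

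Groups were taken from the sample labels. The 11510 genes kept by filterByExpr (minimum count 10) were fitted with edgeR 4.0.16 in R 4.3.3 (TMM, default quasi-likelihood fit, no covariate), with Benjamini-Hochberg adjustment. Standard errors were derived from the F statistic and intervals from its degrees of freedom. CPM values are the counts divided by TMM-scaled totals. Ratios of genes were tested with exact permutation in scipy 1.17.1. Length and GC dependence was removed with robust splines (5 df, MASS). DESeq2 1.42.0 was an alternative. The fits were tested on simulated data with 200 changed genes.

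No 2 libraries were identical. Total counts of 4656103 to 6937497 limit precision for genes of few counts. Each line is a separate tumour, so p-values measure spread between tumours. All members were named. From each list at most 4 genes that passed were named, or the 2 of lowest p where none passed, and the 3 genes most like the 2 members with the largest fold changes. The members, gene lists and markers were chosen with earlier results of these data known. The table's count columns were all used. Some results for single genes are not reported here.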

Additional observations from a re-analysis of the deposited data

How the results depend on the processing

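No paired analysis was possible because no replicate number occurs in both groups. Directions of Hras, Nras, Mras, Rras, Rras2, Rap2a and Rap2b were kept under 8 other settings and with each line left out. With at least 10 counts in every line, log2 fold changes were -1.09 for Rras2 (adjusted p = 0.0486) and -0.001 for Rap1a, 1 member was called lower, and 3 list genes higher. With total counts only, Rap1a had -0.0229 and 3 list genes were called higher. With length and GC offsets, Rras had -0.93, Rap1a -0.175 and Rap1b -0.027, 1 member was called lower, and 3 list genes were called higher and 1 lower. DESeq2 gave Rras2 -1.04 and Rap2a 0.88 (adjusted p = 0.00951 and 0.0282), called 2 members higher and 1 lower, 9 list genes higher and 14 lower, and 2827 genes in all against 1690 by edgeR. With chromosome offsets, chosen after seeing the data, Rras had -1.07, Rras2 -1.46, Rap1b -0.065 and Rap2a 1.07, and 2 members were called higher and 2 lower. Robust fitting, no filter and DESeq2 size factors gave the same number of members called as the default. The cause of these differences was not tested.

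With 1 line left out, log2 fold changes ranged from 1.31 to 1.76 for Hras, from -0.56 to -0.35 for Nras, from -1.02 to -0.52 for Mras, from -0.73 to -0.50 for Rras, from -1.28 to -0.84 for Rras2, from -0.05 to 0.15 for Rap1a, from 0.08 to 0.27 for Rap1b, from 0.67 to 1.15 for Rap2a and from 0.60 to 0.91 for Rap2b. From 0 to 2 members were called higher and 0 to 1 lower, with 0 to 4 list genes higher and 0 to 7 lower. Rap1a was at -0.0514 without 2D, -0.0028 without Myc_p53 line 1 and -0.0243 without Myc_p53 line 2. The difference in log2 ratio ranged from 1.69 to 2.20 for Hras to Nras, from 0.06 to 0.71 for Rras to Rras2, from -0.20 to -0.06 for Rap1a to Rap1b and from -0.15 to 0.57 for Rap2a to Rap2b. The whole table had 4 to 1954 genes called. Each member had at least 70 counts in every line, while Lrrc56, Rerg and Gm9392 had few and are limited by depth.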
